A study of Mus musculus with 24 samples.

Results

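The comparison described here is between 2 doses of dietary quercetin in diabetic mice. Liver RNA of 6 mice fed 0.5% quercetin was set against liver RNA of 6 mice fed 0.1% quercetin, which is 12 of the 24 arrays of the series, with 1 Affymetrix array per mouse. The arrays were taken by their labelled group, and the 34958 of 45101 probe sets that carry 1 gene symbol in the platform table were used. They stand for 18194 genes. All mice were male BALB/c mice bought at 6 weeks of age and kept on a reversed light cycle, with the dark period during the day. Both quercetin groups had been injected with streptozotocin at 185 mg/kg, had a non-fasting blood glucose of 230 to 400 mg/dL when the diets began, and ate the purified diet AIN93G with quercetin for 14 days. The other 12 mice were 6 streptozotocin-injected mice on AIN93G alone (STZ) and 6 untreated mice on AIN93G (control). The mice were housed 3 to a cage, and no label ties a mouse to a cage, so an effect of the cage cannot be told apart from that of the dose.

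Quercetin is a flavonol of onions, tea and many fruits. After absorption it is glucuronidated, sulfated and methylated in the gut wall and liver, and what circulates is mostly these conjugates. It has been studied as an antioxidant, as an activator of the transcription factor NRF2 and as a ligand of the aryl hydrocarbon receptor (AhR). Streptozotocin is taken up by pancreatic beta cells and kills them. The mice are therefore short of insulin, the hormone that lowers glucose output and raises fat synthesis in the liver. Streptozotocin also alkylates DNA in the liver itself, which takes up the drug through the same glucose transporter as the beta cell.

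Levels are given as log2 of the quantile normalized intensity plus 16, and a difference is the mean at 0.5% minus the mean at 0.1% on that log2 scale, with its standard error (SE) from limma. Unless a probe set is named, the values of a gene are those of its brightest one. Levels of different probe sets are not compared. Mean raw intensity per array ran from 61.0 to 91.0 over the 12 arrays, and their pairwise correlations from 0.9617 to 0.9858. Replicates 5 and 6 of the 0.5% group stood apart. On the first principal component of the 12 arrays, with 23.1% of the variance, they lay at 29.35 and 34.95, against -21.57 to 6.909 for the other 10. At the low end lay 0.1% replicates 5 and 6, at -21.57 and -17.12. Results are therefore also given without replicates 5 and 6 of the 0.5% group and without replicates 5 and 6 of both doses. The 3' minus 5' difference of the Gapdh control probe sets, a measure of RNA integrity, was -0.316 ± 0.153 at 0.1% and -0.210 ± 0.170 at 0.5% (SD, n = 6 each, two-sided exact permutation p = 0.2857, adjusted over 2 control genes 0.2987). The highest 2 of the 12 values were those of 0.5% replicates 5 and 6, at -0.0557 and 0.00973, against -0.396 to -0.143 in the other 0.5% mice and -0.531 to -0.0730 at 0.1%. With this measure as a covariate limma also called 0 probe sets, with a smallest adjusted p of 0.239, and its further part in the results that rest on those 2 mice was not tested.

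The tissue showed its labelled identity. The hepatocyte markers were among the brightest probe sets, with Alb, the gene of serum albumin, at a mean of 12.92 at 0.1% and 12.90 at 0.5%. Of 10 hepatocyte markers tested, 8 were lower and 2 higher at 0.5%, with a median difference of -0.03. In whole liver, fewer cells of a type and less RNA per cell cannot be told apart.

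No probe set differed between the doses at an adjusted p below 0.05. Of 23082 probe sets tested with limma and Benjamini-Hochberg adjustment, 0 were called higher and 0 lower (0.0% called), and the smallest adjusted p was 0.152. At an unadjusted p below 0.05 there were 860 probe sets higher (3.73%) and 966 lower (4.19%) at 0.5%, together 1826 (7.91%). Counted by gene, 492 of 13114 were higher (3.75%) and 584 lower (4.45%), together 1076 (8.2%) at that threshold, and these are the shares against which the gene lists below are read. The median SE of a difference was 0.110. A difference of at least 1 log2 unit was seen for 7 genes that were higher and 15 that were lower at 0.5%. The median difference over all 13114 genes was -0.0027, and 6443 had a higher and 6671 a lower mean at 0.5%. In 53 probe sets (0.23%) every mouse of 1 dose lay above every mouse of the other. Of these, 17 probe sets of 17 genes (0.0737%) were higher and 36 of 35 genes (0.156%) lower at 0.5%. With 1 probe set per gene these counts were 11 (0.0839%) and 23 (0.175%), together 34 (0.259%).

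Keratin and galectin genes were among the 53 probe sets in which the doses did not overlap, a number near that of chance. Krt8 and Krt18 encode the pair of keratins that form the intermediate filaments of hepatocytes and other simple epithelia. In replicates 1 to 6 the Krt8 level (probe set 1420647_a_at) was 9.50, 9.75, 9.67, 9.57, 9.59 and 9.69 at 0.1%, and 9.49, 8.92, 8.92, 9.32, 9.12 and 9.11 at 0.5%. Every 0.5% mouse lay below every 0.1% mouse, although the highest of them nearly touched the lowest. The difference was -0.48 (SE 0.11, limma adjusted p = 0.223). The other Krt8 probe sets differed by -0.69 (SE 0.14, adjusted p = 0.155) and -0.55 (SE 0.12, adjusted p = 0.223). Krt18 ran from 9.82 to 10.28 with a median of 9.92 at 0.1%, and from 9.39 to 9.71 with a median of 9.51 at 0.5%, a difference of -0.43 (SE 0.10, adjusted p = 0.223). Both keratins were on the control side of the 0.1% group, with control means of 9.28 for Krt8 and 9.58 for Krt18. Without replicates 5 and 6 of both doses the differences were -0.46 for Krt8 and -0.31 for Krt18. Where the doses do not overlap, leaving out mice cannot turn the sign of a difference. Krt18, which lies outside the naming rule, was chosen after its values were seen.

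Lgals1 and Lgals3 encode galectins, lectins that bind galactose-containing sugars and are abundant in macrophages and activated stellate cells. Lgals1 lay between 7.61 and 7.92 (median 7.72) at 0.1% and between 7.05 and 7.61 (median 7.31) at 0.5%. The groups met at 7.61 without overlapping, and the difference was -0.43 (SE 0.11, adjusted p = 0.365). Its second probe set differed by -0.56 (SE 0.14), with 5 of 6 mice below all mice of 0.1%. Lgals3 lay between 6.05 and 6.42 (median 6.21) and between 5.59 and 6.02 (median 5.78), a difference of -0.45 (SE 0.13, adjusted p = 0.397). Sh3pxd2b, an adaptor of podosomes, the matrix-degrading contacts of migrating cells, was near the bottom of the scale. It spanned 4.52 to 4.81 (median 4.76) at 0.1% and 4.08 to 4.37 (median 4.22) at 0.5%, a difference of -0.48 (SE 0.11, adjusted p = 0.223). Without replicates 5 and 6 of both doses these 3 differences were -0.38, -0.41 and -0.51. Another probe set of Sh3pxd2b differed by -0.14 (SE 0.11). These 3 genes were chosen after their values were seen.

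**Figure D1:**
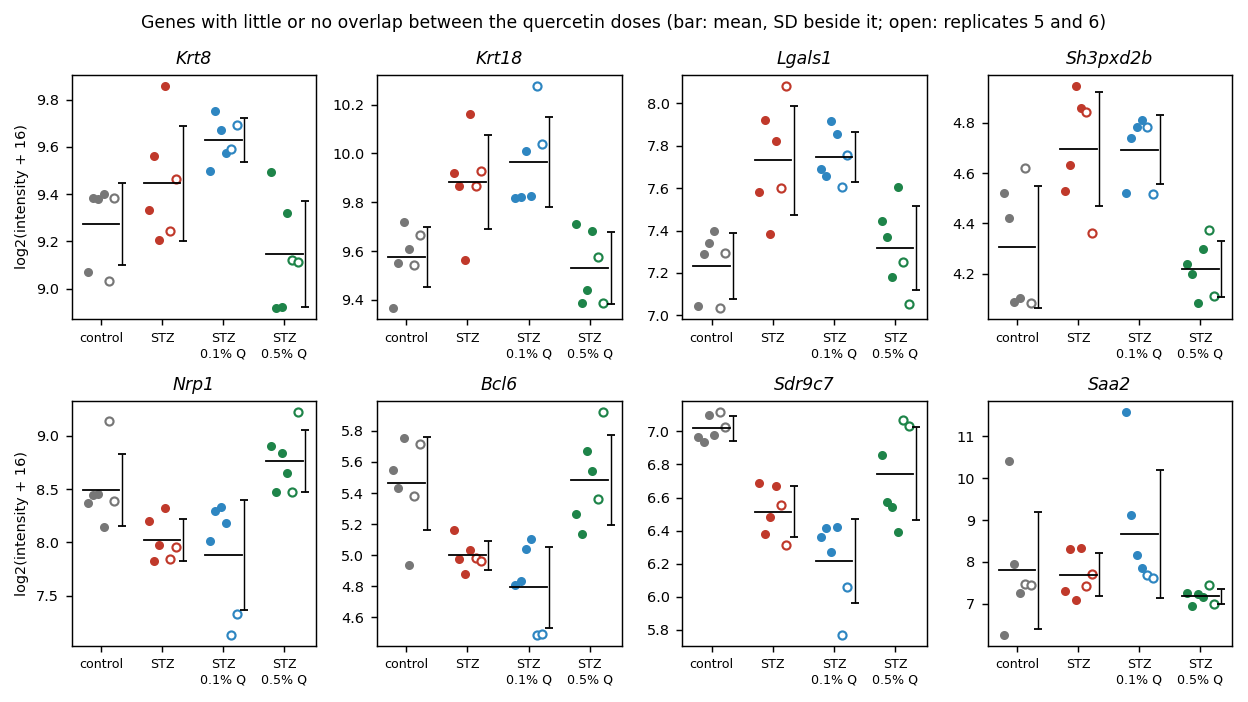
Level, as log2(normalized intensity + 16), of 8 genes in the 4 groups, with 1 point per mouse, a bar for the mean and a whisker for the SD (n = 6), and replicates 5 and 6 drawn open. In Krt8, Krt18, Lgals1, Sh3pxd2b and Saa2 all 0.5% quercetin mice lay below all 0.1% mice, and in Nrp1 and Bcl6 (probe set 1450381_a_at) all lay above them. In Sdr9c7 5 of 6 did.

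The probe sets with the smallest p among those lower at 0.5% were those of Pparg, Tnfaip1, Krt8, Bcl2l1 and Ddr1. Pparg encodes the nuclear receptor that promotes lipid storage in adipocytes and in fatty liver. Its level was near the bottom of the scale. It ran from 4.80 to 5.25 (median 5.00) at 0.1% and from 4.14 to 4.83 (median 4.38) at 0.5%, so 5 of 6 mice lay below all mice of 0.1%. The difference of -0.58 (SE 0.11, adjusted p = 0.152) was -0.63 without replicates 5 and 6 of both doses. Leaving out 0.5% replicate 2, the highest of its group, gave -0.67 with an adjusted p of 0.00668. Tnfaip1, an adaptor of a ubiquitin ligase that acts on RhoA, differed by -0.48 (SE 0.09, adjusted p = 0.155) on probe set 1417865_at, with 5 of 6 mice below all mice of 0.1%. Its 2 other probe sets differed by -0.09 and -0.05. Bcl2l1, which encodes the survival protein Bcl-xL, differed by -0.59 (SE 0.12, adjusted p = 0.155) on probe set 1420887_a_at and by -0.15 on the brightest. Ddr1, a collagen receptor, differed by -0.64 (SE 0.14, adjusted p = 0.223) on probe set 1456226_x_at and by -0.08 on the brightest, both near the bottom of the scale. For Tnfaip1, Bcl2l1 and Ddr1 the brightest probe set thus did not show the size seen on the leading one. Besides Pparg, 3 probe sets passed the threshold when a single array was left out, Bcl2l1 at -0.69 (adjusted p = 0.0335) without 0.1% replicate 3, and Tnfaip1 at -0.54 and Krt8 (1435989_x_at) at -0.79 (each adjusted p = 0.0393) without 0.5% replicate 1.

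Among those higher at 0.5%, Bcl6, Gpd2, Nrp1, Sdr9c7, Fkbp8 and Chchd7 had the smallest p. Nrp1 encodes neuropilin 1, a co-receptor for VEGF and semaphorins. In replicates 1 to 6 its level was 8.01, 8.30, 8.34, 8.18, 7.13 and 7.33 at 0.1%, and 8.91, 8.47, 8.84, 8.65, 8.47 and 9.22 at 0.5%. Every 0.5% mouse was above every 0.1% mouse, and 0.1% replicates 5 and 6 were the lowest of the 12. The difference was 0.88 (SE 0.18, adjusted p = 0.173), and 0.51 without replicates 5 and 6 of both doses. Other Nrp1 probe sets differed by 0.67 (SE 0.19), 0.43 (SE 0.17) and -0.38 (SE 0.21). Bcl6 encodes a transcriptional repressor that competes with STAT5 for DNA sites in the liver. On probe set 1450381_a_at it ran from 4.49 to 5.10 (median 4.82) at 0.1% and from 5.14 to 5.92 (median 5.45) at 0.5%, with no overlap. The difference was 0.69 (SE 0.13, adjusted p = 0.155), and its brightest probe set differed by 0.81 (SE 0.34, adjusted p = 0.569). The control mean on probe set 1450381_a_at was 5.46 and the STZ mean 5.00, so the 0.5% median lay at the control mean and the 0.1% median below the STZ mean.

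Sdr9c7, a short-chain dehydrogenase, spanned 5.77 to 6.42 (median 6.32) at 0.1% and 6.39 to 7.07 (median 6.72) at 0.5%, a difference of 0.53 (SE 0.12, adjusted p = 0.223). The highest mice were 0.5% replicates 5 and 6, at 7.07 and 7.03, and the lowest were 0.1% replicates 5 and 6, at 5.77 and 6.06. The other Sdr9c7 probe set differed by 0.46 (SE 0.12). Fkbp8, a mitochondrial chaperone of the immunophilin family, differed by 0.44 (SE 0.10, adjusted p = 0.341). Gpd2, the mitochondrial glycerol phosphate dehydrogenase, differed by 0.50 (SE 0.10, adjusted p = 0.155) on probe set 1452741_s_at, by 0.33 on another and by 0.10 on the brightest. Chchd7, a small mitochondrial protein, differed by 0.44 (SE 0.11, adjusted p = 0.341) on probe set 1444318_at and by 0.02 on the brightest. Only Sdr9c7 and Fkbp8 of these 4 were thus led by the brightest probe set.

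Male-biased genes of the liver depend on the pulsed growth hormone of males, and streptozotocin diabetes is known to disturb that axis. They were read in a list together with genes of growth hormone signalling, Ghr and Cish among them. Of 18 genes of this list tested, 15 had a higher mean at 0.5% than at 0.1% and 3 a lower one. At an unadjusted p below 0.05, 11 were higher and 0 lower. No member was called, and the list's median difference was 0.56. The median was 0.34 without 0.5% replicates 5 and 6, 0.19 without 0.1% replicates 5 and 6, and 0.06 without both pairs. Hsd3b5, a male-specific steroid dehydrogenase, was 8.97, 10.51, 8.24, 10.34, 7.01 and 6.63 in 0.1% replicates 1 to 6, and 10.48, 9.31, 10.12, 9.51, 11.42 and 11.50 in those of 0.5%. The groups overlapped, with 0.1% replicates 5 and 6 far below the rest and 0.5% replicates 5 and 6 in the control range of 11.26 to 11.55. The difference was 1.77 (SE 0.51, adjusted p = 0.397), a 3.42-fold higher mean, and 0.34 without both pairs. Slco1a1, an organic anion transporter, spanned 8.21 to 9.99 (median 8.79) and 9.19 to 10.51 (median 9.69), a difference of 0.85 (SE 0.25, adjusted p = 0.402) that was 0.19 without both pairs. Elovl3, a fatty acid elongase, differed by 1.17 (SE 0.52, adjusted p = 0.583) and by -0.16 without both pairs.

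The growth hormone receptor and its direct targets gave values in both directions. Ghr, the receptor, differed by 0.32 (SE 0.14, adjusted p = 0.582), and by 0.28 and 0.36 on its other probe sets. Igf1, the hormone that growth hormone induces in the liver, differed by 0.03 (95% interval -0.16 to 0.22) on its brightest probe set. A second Igf1 probe set (1419519_at) had no overlap, from 8.70 to 9.18 (median 8.94) at 0.1% and from 9.19 to 9.80 (median 9.37) at 0.5%, a difference of 0.46 (SE 0.12, adjusted p = 0.389). The other Igf1 probe sets differed by 0.22 (SE 0.09) and 0.24 (SE 0.11). Socs2, a feedback inhibitor of growth hormone signalling, was 5.12 to 5.57 (median 5.43) at 0.1% and 5.09 to 7.76 (median 5.86) at 0.5%. At 0.5%, 5 of 6 mice lay above all mice of 0.1%, with replicates 1 and 6 the highest at 7.21 and 7.76 and replicate 2 the lowest of the 12. The difference was 0.83 (SE 0.40, adjusted p = 0.628) and 0.52 without 0.5% replicate 6, and a probe set of Socs2 without overlap (1442586_at) differed by 0.31 (SE 0.11, adjusted p = 0.506). Cish, another such inhibitor, differed by -0.39 (SE 0.32, adjusted p = 0.809). Ghr, Socs2, Cish and Igf1 were chosen after their values were seen.

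Female-biased genes stood on the other side. Of 11 tested, 1 was higher and 10 lower at 0.5%, 0 and 3 of them at an unadjusted p below 0.05, with a median of -0.42, and -0.01 without replicates 5 and 6 of both doses. Cyp2b9, a cytochrome P450 that is low in male liver, spanned 6.83 to 8.90 (median 8.22) at 0.1% and 4.98 to 9.11 (median 6.92) at 0.5%, a difference of -1.27 (SE 0.48, adjusted p = 0.543). The mouse with the highest level of the 12 was 0.5% replicate 2, and the lowest 2 were 0.5% replicates 5 and 6. Without both pairs the difference was -0.19. Prom1, a membrane protein of progenitor cells, differed by -0.37 (SE 0.16, adjusted p = 0.574) and by 0.06 without both pairs.

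**Figure D2:**
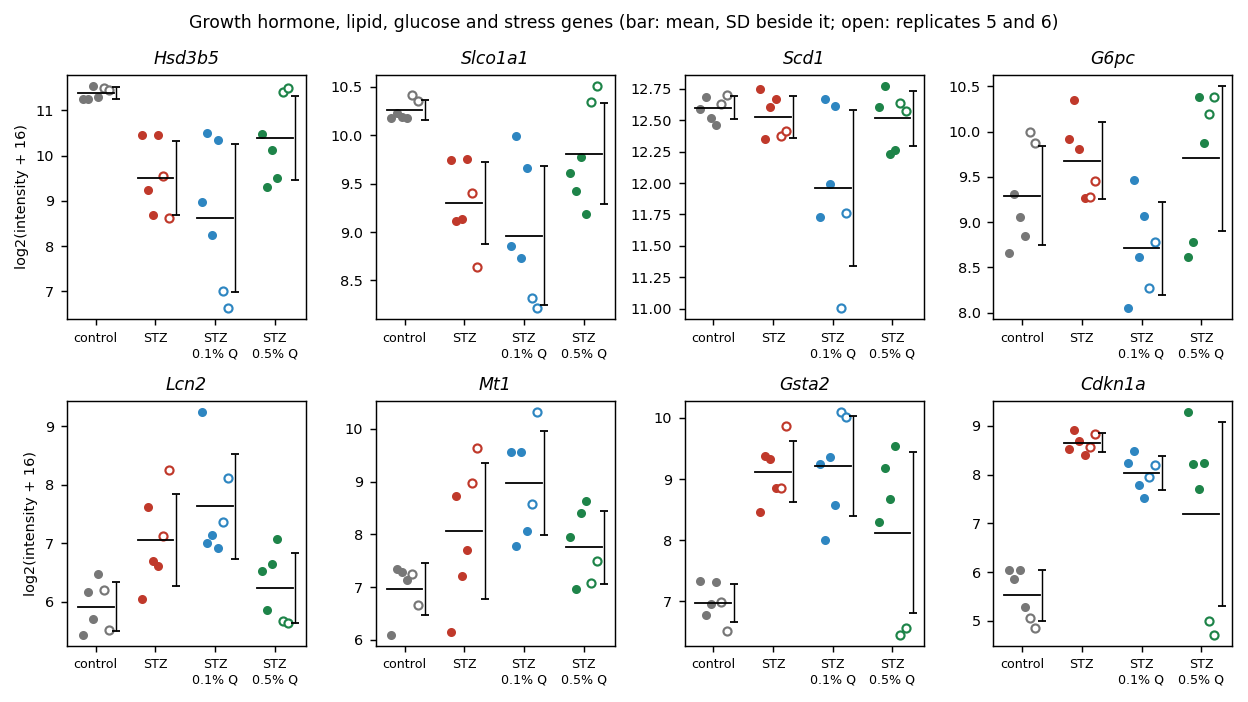
Level, as log2(normalized intensity + 16), of 8 pathway genes in the 4 groups, with 1 point per mouse, a bar for the mean and a whisker for the SD (n = 6), and replicates 5 and 6 drawn open. In Hsd3b5, Slco1a1, Gsta2 and Cdkn1a, 0.5% replicates 5 and 6 lay near the controls. They also lay near them in Lcn2 and Mt1, whose differences were still -1.10 and -0.99 without those 2 mice.

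Fatty acid and triglyceride synthesis is switched on in the liver by insulin. Of 24 genes of this pathway, 20 were higher and 4 lower at 0.5%, 9 and 0 of them at an unadjusted p below 0.05. The median was 0.25, 0.11 without 0.5% replicates 5 and 6, and 0.05 without both pairs. Scd1, which introduces the double bond of oleate, was 11.73, 12.67, 11.99, 12.62, 11.003 and 11.76 in replicates 1 to 6 of 0.1%, and 12.61, 12.78, 12.23, 12.26, 12.64 and 12.58 in those of 0.5%. Low values occurred at 0.1% in 4 of 6 mice, and the other 2 lay among the 0.5% mice. The difference was 0.55 (SE 0.18, adjusted p = 0.464), and 0.22 without both pairs. The STZ mice on plain diet lay between 12.35 and 12.75, and the control mice between 12.47 and 12.70. Me1, the malic enzyme that supplies NADPH, spanned 8.71 to 10.31 (median 9.25) and 9.56 to 10.78 (median 10.16), a difference of 0.78 (SE 0.24, adjusted p = 0.464). Fasn, which builds palmitate, differed by 0.72 (SE 0.27, adjusted p = 0.543). The regulator Srebf1 differed by 0.08 (SE 0.19, 95% interval -0.30 to 0.46). Without both pairs the differences of Me1 and Fasn were 0.46 and 0.34.

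Cholesterol synthesis genes, driven by SREBP2, showed the same direction by count, with 18 of 20 higher and 2 lower at 0.5%. At an unadjusted p below 0.05 there were 3 higher and 0 lower, and the median was 0.14. Without both pairs 4 were higher and 16 lower, with a median of -0.09, so the count turned round. Fdps, farnesyl diphosphate synthase, differed by 0.75 (SE 0.32, adjusted p = 0.573), and Sc5d, a late desaturase of the pathway, by 0.61 (SE 0.24, adjusted p = 0.551). Both reversed without both pairs, to -0.10 and -0.07. Among genes of lipid droplets and fatty acid uptake, 12 of 19 were higher and 7 lower, with 3 in each direction at an unadjusted p below 0.05 and a median of 0.03. G0s2, an inhibitor of the main triglyceride lipase, spanned 6.93 to 9.07 (median 8.67) at 0.1% and 8.77 to 10.41 (median 9.35) at 0.5%. Its difference of 1.13 (SE 0.34, adjusted p = 0.43) was 0.62 without both pairs and opposite in sign to that of Pparg, which is in the same list.

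Genes of glucose use and glucose output were mixed. G6pc, glucose-6-phosphatase, the last step of glucose release, was 8.05, 9.47, 8.62, 9.07, 8.28 and 8.78 in replicates 1 to 6 of 0.1%, and 8.62, 8.78, 10.38, 9.87, 10.19 and 10.39 in those of 0.5%. At 0.5%, 4 of 6 mice lay above all mice of 0.1%, and the other 2 lay within that group. The difference was 1.00 (SE 0.30, adjusted p = 0.419), a 2.00-fold higher mean, and 0.61 without both pairs. Pck1, the enzyme that commits carbon to gluconeogenesis, differed by -0.17 (95% interval -0.51 to 0.18), and Gpt, alanine aminotransferase, by -0.47 (SE 0.15, adjusted p = 0.464). Of 14 gluconeogenesis genes 4 were higher and 10 lower, 1 in each direction at an unadjusted p below 0.05, with a median of -0.07. The count turned to 9 higher and 5 lower without 0.1% replicates 5 and 6, and to 10 and 4 without both pairs (median 0.03). Of 11 glycolysis and glucose uptake genes 9 were higher and 2 lower, with 1 and 0 at that threshold and a median of 0.08. Under median scaling the list median was -0.01 and the median over all genes -0.05. Pklr, liver pyruvate kinase, spanned 7.21 to 8.58 (median 7.88) at 0.1% and 8.07 to 9.02 (median 8.73) at 0.5%, a difference of 0.68 (SE 0.19, adjusted p = 0.397). Its other probe sets differed by 0.67 and 0.57, and without both pairs its brightest differed by 0.23.

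Insulin-responsive binding proteins and kinases gave single values in both directions. Igfbp2, an IGF-binding protein, spanned 8.94 to 10.70 (median 10.21) at 0.1% and 8.41 to 9.86 (median 9.03) at 0.5%, a difference of -0.95 (SE 0.29, adjusted p = 0.439). Igfbp1, which insulin represses, differed by 0.13 (95% interval -0.54 to 0.79). Ppp1r3b, which brings a phosphatase to glycogen and promotes its synthesis, differed by 0.66 (SE 0.21, adjusted p = 0.464), and Phka2, a subunit of the kinase that starts its breakdown, by -0.21 (SE 0.08, adjusted p = 0.568). Pdk1 and Pdk4, kinases that shut off pyruvate dehydrogenase, differed by 0.40 (SE 0.13, adjusted p = 0.464) and 0.26 (SE 0.13, adjusted p = 0.633), and Grb14, an inhibitor of the insulin receptor, by 0.29 (SE 0.09, adjusted p = 0.485). Of the 18 insulin signalling genes 10 were higher and 8 lower, 3 in each direction at an unadjusted p below 0.05, with a median of 0.01. The glycogen and pyruvate dehydrogenase lists were near even too, with medians of -0.004 over 13 and 0.02 over 10 genes.

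Genes of the acute phase response, most of them for secreted proteins, had lower means at 0.5% in 19 of 24 and higher means in 5, 9 and 1 of them at an unadjusted p below 0.05, with a median of -0.09. Lcn2, lipocalin 2, which binds the iron carriers of bacteria, was 9.24, 6.999, 7.14, 6.92, 7.37 and 8.11 in replicates 1 to 6 of 0.1%, and 6.53, 5.87, 6.64, 7.08, 5.68 and 5.64 in those of 0.5%. At 0.5%, 5 of 6 mice were below all mice of 0.1%, and replicates 1 and 6 of 0.1% were the highest. The difference was -1.39 (SE 0.35, adjusted p = 0.352), a mean at 0.381 of that at 0.1%, and -1.05 without replicates 5 and 6 of both doses. Saa2, serum amyloid A2, was 11.58, 9.12, 8.16, 7.85, 7.68 and 7.63 in 0.1% replicates 1 to 6 and lay between 6.95 and 7.45 (median 7.20) at 0.5%. No 0.5% mouse reached the lowest mouse of 0.1%, whose replicate 1 was far above its group. The difference was -1.49 (SE 0.53, adjusted p = 0.506) and -0.91 without 0.1% replicate 1, and Saa2 was the acute phase gene in which the doses did not overlap. Hp, haptoglobin, differed by -0.14 (SE 0.07, adjusted p = 0.628). Taken by mouse, the mean deviation of the 24 genes from their 12-mouse mean was 0.58 in 0.1% replicate 1, -0.05 to 0.14 in the other 0.1% mice, and -0.34 to 0.02 at 0.5%.

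Metallothioneins are small cysteine-rich proteins that bind zinc and copper and are induced by metals, glucocorticoids and inflammation. The transcription factor MTF-1 binds metal response elements in their promoters. One form of the core of these elements, TGCACNC, was searched, and other forms were not. The 250 bases before the RefSeq start of Mt1 (chr8:94178839-94179088, plus strand) and Mt2 (chr8:94172368-94172617, plus strand) in GRCm38.p6 are shown because both of these neighbouring genes had lower means at 0.5%, although neither passed the test, with the matches to TGCACNC on either strand in capitals.
Mt1: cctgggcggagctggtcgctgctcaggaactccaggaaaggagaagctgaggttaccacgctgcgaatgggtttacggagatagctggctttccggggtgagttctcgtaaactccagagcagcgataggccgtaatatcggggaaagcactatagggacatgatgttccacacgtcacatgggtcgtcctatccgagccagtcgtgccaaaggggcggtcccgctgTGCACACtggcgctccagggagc
Mt2: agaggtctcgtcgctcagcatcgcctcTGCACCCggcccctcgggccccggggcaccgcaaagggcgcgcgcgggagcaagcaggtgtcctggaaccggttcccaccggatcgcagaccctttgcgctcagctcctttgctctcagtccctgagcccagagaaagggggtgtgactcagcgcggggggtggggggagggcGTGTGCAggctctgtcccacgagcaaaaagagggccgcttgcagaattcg
The window of Mt1 held 1 match, which starts 23 bases before the start site, and that of Mt2 held 2, at 223 and 50 bases before it. The motif is common: it occurred in 14.2% of 27025 genes in the promoter table, in windows that reach 50 bases past the start, and in 2 of 13 genes (15.4%) of the antioxidant and metal-binding list, which were Mt1 and Mt2.

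Mt1 was 9.55, 7.77, 9.57, 8.07, 8.58 and 10.32 in replicates 1 to 6 of 0.1%, and 7.96, 6.97, 8.40, 8.64, 7.09 and 7.49 in those of 0.5%. The groups overlapped, and 3 of 6 mice at 0.5% lay below all mice of 0.1%. The difference was -1.22 (SE 0.45, adjusted p = 0.54), and -0.42 (SE 0.14) on its other probe set. Mt2 was 8.27, 6.92, 8.04, 6.62, 6.68 and 8.43, against 6.70, 5.96, 6.59, 7.02, 5.70 and 6.22, a difference of -1.12 (SE 0.34, adjusted p = 0.453). In both genes 0.1% replicates 1, 3 and 6 were the highest of the 12 mice. Without replicates 5 and 6 of both doses the differences were -0.75 for Mt1 and -0.89 for Mt2. The same list holds superoxide dismutases, peroxidases and peroxiredoxins. Of all 14 genes tested 4 were higher and 10 lower, 0 and 3 at an unadjusted p below 0.05, with a median of -0.05.

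NRF2 targets, the antioxidant and conjugating enzymes that quercetin has been proposed to induce, were mostly lower at the higher dose. Of 26 tested, 5 were higher and 21 lower at 0.5%, 1 and 9 of them at an unadjusted p below 0.05, and the median was -0.20. The median was -0.03 without 0.5% replicates 5 and 6 and 0.02 without both pairs. Srxn1, sulfiredoxin, which repairs oxidized peroxiredoxins, spanned 6.78 to 7.80 (median 7.02) at 0.1% and 6.20 to 6.86 (median 6.49) at 0.5%, a difference of -0.67 (SE 0.16, adjusted p = 0.341), and -0.28 without both pairs. Gsta2, a glutathione transferase, was 9.25, 7.999, 9.37, 8.58, 10.10 and 10.01 at 0.1%, and 8.30, 9.18, 8.67, 9.54, 6.46 and 6.57 at 0.5%. Its lowest 2 mice were 0.5% replicates 5 and 6, its highest were 0.1% replicates 5 and 6, and the difference of -1.10 (SE 0.41, adjusted p = 0.543) was 0.13 without them. Nqo1, Hmox1 and Nfe2l2, which encode a quinone reductase, heme oxygenase and NRF2 itself, differed by -0.20 (95% interval -0.50 to 0.11), -0.28 (-0.57 to 0.003) and -0.22 (SE 0.14). The antioxidant response element core TGACNNNGC lay in the promoter window of 8 of 23 NRF2 targets (34.8%), Srxn1 and Me1 among them, against 14.0% of all genes. Srxn1 and Me1 differed in opposite directions.

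Genes for the handling of quercetin itself were read next. Of 18 genes of flavonoid conjugation and transport, 4 were higher and 14 lower at 0.5%, 3 and 5 of them at an unadjusted p below 0.05, with a median of -0.06, and 0.001 without both pairs. Slco1a4, an organic anion uptake transporter, spanned 6.75 to 8.16 (median 7.79) at 0.1% and 5.74 to 7.44 (median 6.31) at 0.5%, a difference of -1.15 (SE 0.32, adjusted p = 0.397). Abcc3, which exports glucuronides to the blood, differed by -0.68 (SE 0.19, adjusted p = 0.397), and Sult1a1, a phenol sulfotransferase, by -0.51 (SE 0.21, adjusted p = 0.569). All 3 kept that direction without both pairs, at -0.58, -0.33 and -0.11. Of 8 AhR targets, 3 were higher and 5 lower, none at an unadjusted p below 0.05, and Cyp1a1, the standard target, differed by -0.13 (95% interval -0.33 to 0.06) at a level near the bottom of the scale. Of 21 genes under the drug-sensing receptors CAR and PXR, 3 were higher and 18 lower, 1 and 4 at that threshold, with a median of -0.19. That median was 0.10 without both pairs. Cyp2b10, the standard CAR target, differed by -0.29 (95% interval -0.98 to 0.40), and Cyp2c29 by 0.30 (SE 0.10, adjusted p = 0.506).

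The p53 targets are genes of growth arrest and DNA repair that follow DNA damage. Of 26 tested, 4 were higher and 22 lower at 0.5%, 0 and 5 of them at an unadjusted p below 0.05, with a median of -0.19. By mouse, the mean deviation of these genes was -0.72 and -0.58 in 0.5% replicates 5 and 6, 0.04 to 0.19 in 0.5% replicates 1 to 4 and 0.04 to 0.20 in the 0.1% mice. On the same origin the controls ran from -0.62 to -0.49 and the STZ mice from 0.01 to 0.31, so those 2 mice lay with the controls and the other 10 with the STZ mice. Without these 2 mice the median was -0.01. Cdkn1a, the cell cycle inhibitor p21, showed this most plainly, at 8.25, 8.48, 7.79, 7.52, 7.95 and 8.20 in 0.1% replicates 1 to 6 and 9.29, 8.22, 7.70, 8.24, 5.01 and 4.72 in those of 0.5%. Its difference was -0.84 (SE 0.49, adjusted p = 0.691), with a 95% interval of -1.85 to 0.17, and 0.33 without 0.5% replicates 5 and 6. A second probe set, at a lower level, differed by -0.62 (SE 0.17), and by -0.44 without them. Btg2, an antiproliferative gene, and Aen, a nuclease of apoptosis, differed by -0.45 (SE 0.16, adjusted p = 0.506) and -0.51 (SE 0.18, adjusted p = 0.51), and by -0.17 and -0.12 without both pairs.

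Macrophage and antigen-presentation genes behaved likewise. Of 13 Kupffer cell and macrophage markers, 2 were higher and 11 lower at 0.5%, 0 and 3 at an unadjusted p below 0.05, with a median of -0.17. Their summed intensity ran from 2048 to 2401 at 0.1% and from 1421 to 2301 at 0.5%, and the mean deviation was -0.42 in each of 0.5% replicates 5 and 6, against 0.06 to 0.17 in replicates 1 to 4. Without those 2 mice the median was 0.03. Cd68 and C1qb, a lysosomal protein and a complement subunit of macrophages, differed by -0.30 (SE 0.11, adjusted p = 0.51) and -0.34 (SE 0.15, adjusted p = 0.582), and by -0.10 and -0.04 without both pairs. Of 6 MHC class II genes, 1 was higher and 5 lower, 0 and 2 at an unadjusted p below 0.05, with a median of -0.28 and, without 0.5% replicates 5 and 6, 0.02. H2-Aa and H2-DMa differed by -0.48 (SE 0.21, adjusted p = 0.582) and -0.36 (SE 0.13, adjusted p = 0.527). Of 24 interferon response genes, 9 were higher and 15 lower, with 0 and 1 at that threshold, and a median of -0.08. Without 0.5% replicates 5 and 6 it was 0.18. Gbp2 and Mx2, both interferon-induced GTPases, differed by -0.29 (SE 0.12, adjusted p = 0.577) and -0.34 (SE 0.17, adjusted p = 0.637). The differences of Krt8, Krt18, Lgals1 and Lgals3 without the same 2 mice were -0.47, -0.41, -0.35 and -0.42. In these probe sets the doses did not overlap, so their sign could not turn when mice were left out.

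Markers of other cell types gave values in both directions. Of 12 endothelial markers 4 were higher and 8 lower, 0 and 2 at an unadjusted p below 0.05. Kdr, the VEGF receptor 2, differed by -0.27 (SE 0.08, adjusted p = 0.46), and Lyve1, a hyaluronan receptor of liver sinusoids, by -0.53 (SE 0.18, adjusted p = 0.503), and by -0.20 without both pairs. Stellate cell markers were 7 higher and 10 lower, with a median of -0.06, and Acta2, smooth muscle actin, differed by 0.33 (SE 0.15, adjusted p = 0.583). All 3 bile duct markers tested were near the bottom of the scale, 1 higher and 2 lower at 0.5%, with a median of -0.23. Epcam differed by -0.47 (SE 0.13, adjusted p = 0.397) on its brightest probe set and by 0.19 on the other. Krt19, a keratin of bile ducts, differed by -0.23 (SE 0.12, adjusted p = 0.65). Summed over the list, bile duct intensity ran from 22.1 to 31.0 at 0.1% and from 5.89 to 21.1 at 0.5%, and the part of this in the Krt8 and Krt18 values was not tested. Of 5 B and plasma cell markers tested, 2 were higher and 3 lower at 0.5%, with a median of -0.04. Their mean levels were below 6 in 4 of the 5. The mean deviation of this list was highest in 0.5% replicates 5 and 6, at 0.50 and 0.31 against -0.14 to 0.08 in the other 10. The B cell gene Ighm differed by 0.81 (SE 0.30, adjusted p = 0.531) and by 0.12 without both pairs, with its other probe sets between -0.28 and 0.25. The same 2 mice were highest for the 3 exocrine pancreas markers tested, at 0.48 and 0.53 against -0.31 to 0.22. Of these markers 2 had a mean level below 6. Cela1, an elastase, differed by 0.46 (SE 0.20, adjusted p = 0.578) and by -0.12 without both pairs. It was 8.90 and 9.09 in 0.5% replicates 5 and 6, with means of 9.14 in control and 7.76 in STZ mice. Alas2, the heme synthesis enzyme of red cell precursors, differed by 0.60 (SE 0.22, adjusted p = 0.51), and by 0.20 without both pairs. T and NK cell markers were 1 higher and 4 lower and neutrophil markers 1 higher and 5 lower, none at an unadjusted p below 0.05. The defining markers Cd79a, Cd3e, Cd3d, Ly6g, Cpa1, Pnlip and Adipoq were not among the probe sets tested.

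**Figure D3:**
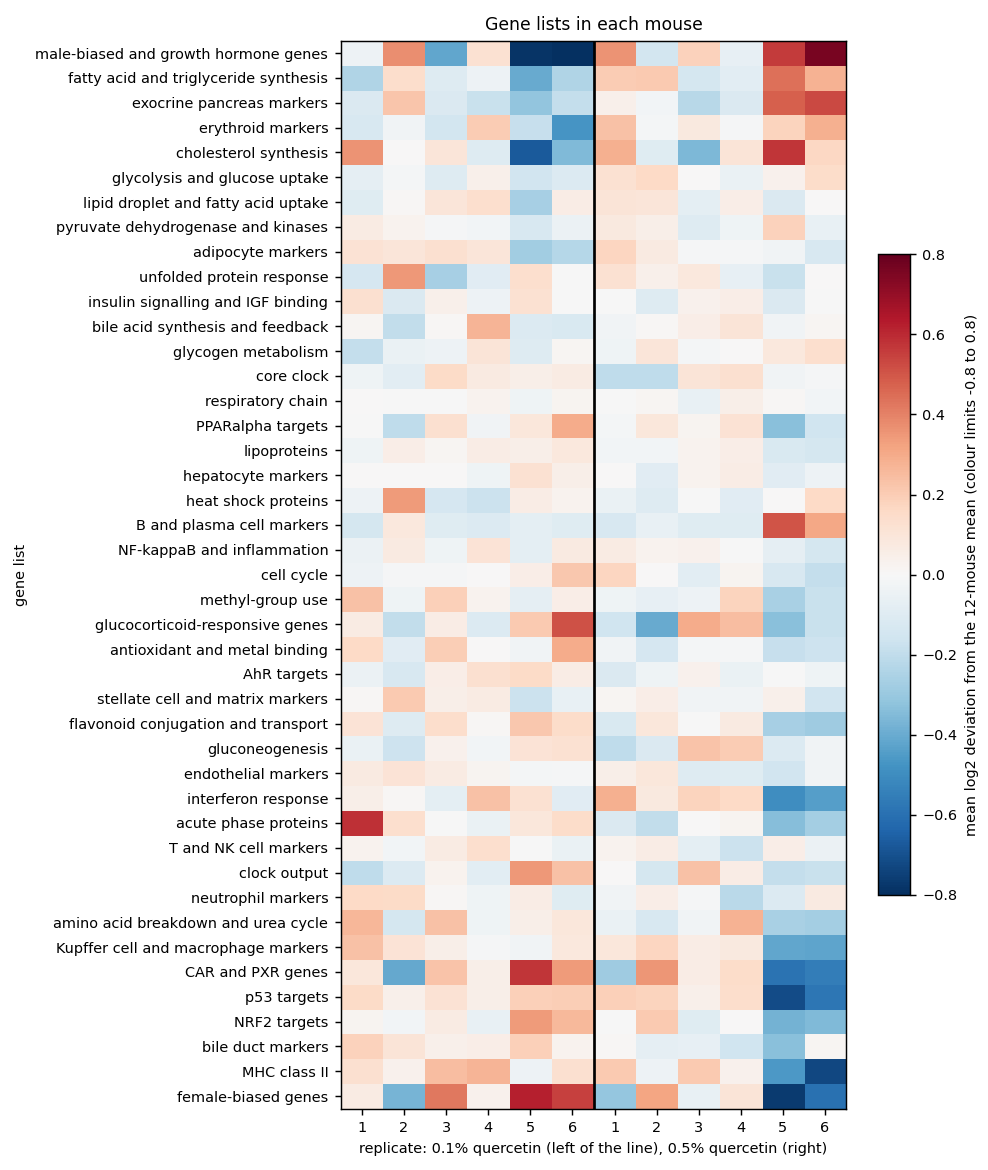
Mean deviation of the genes of 43 lists (rows) from their 12-mouse mean in each mouse (columns, 0.1% replicates left and 0.5% replicates right of the line), in log2 units with the colours limited to -0.8 and 0.8. Replicates 5 and 6 of 0.5% were low in p53 targets (-0.72 and -0.58) and female-biased genes. They were high in the male-biased and growth hormone list (0.56 and 0.76), in which 0.1% replicates 5 and 6 were low (-0.79 and -0.90).

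Fat oxidation, amino acid and methyl-group lists had more lower than higher means with all mice. Of 26 PPARalpha targets 9 were higher and 17 lower, 0 and 3 at an unadjusted p below 0.05, with a median of -0.02. The count turned to 15 higher and 11 lower without 0.5% replicates 5 and 6 (median 0.03) and to 17 and 9 without both pairs (median 0.05). Cyp4a14, a fatty acid omega-hydroxylase, spanned 5.68 to 9.59 (median 7.82) at 0.1% and 4.08 to 7.51 (median 6.30) at 0.5%. It varied widely in both groups, and its difference of -1.75 (SE 0.61, adjusted p = 0.506) was -0.18 without both pairs. Acot2, a mitochondrial thioesterase, differed by -0.39 (SE 0.13, adjusted p = 0.5), by -0.12 without both pairs, and by -0.01 on its other probe set. Of 24 urea cycle and amino acid breakdown genes, 4 were higher and 20 lower, 0 and 4 at that threshold, with a median of -0.13, and -0.08 without both pairs. Uroc1, urocanase of histidine breakdown, spanned 9.30 to 9.47 (median 9.39) at 0.1% and 8.45 to 9.53 (median 9.02) at 0.5%, a difference of -0.46 (SE 0.16, adjusted p = 0.503), and 0.10 on its other probe set. Oat, ornithine aminotransferase, differed by -0.63 (SE 0.24, adjusted p = 0.543), and by -0.29 without both pairs. Of 13 genes of methyl-group use, 4 were higher and 9 lower, 0 and 1 at that threshold, with a median of -0.04, and 1 was higher and 12 lower without both pairs. Nnmt, the nicotinamide methyltransferase, differed by -1.33 (SE 0.53, adjusted p = 0.561) and by -0.39 without both pairs.

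Bile acid and lipoprotein genes were near even. Of 17 bile acid genes 9 were higher and 8 lower, with a median of 0.01. Cyp7a1, whose enzyme starts the classic route from cholesterol, spanned 4.83 to 8.95 (median 6.53) at 0.1% and 5.89 to 7.94 (median 6.56) at 0.5%, and its difference of 0.15 had a 95% interval of -1.21 to 1.498. Cyp7b1, the hydroxylase of the alternative route and also male-biased, differed by 0.53 (SE 0.22, adjusted p = 0.569), and Abcb4, the phospholipid exporter of bile, by -0.31 (SE 0.13, adjusted p = 0.569). Without both pairs these were 0.07 and 0.05. Of 20 lipoprotein genes 7 were higher and 13 lower, 0 and 5 at an unadjusted p below 0.05, with a median of -0.03. Apoc2 and Pltp, an activator of lipoprotein lipase and a phospholipid transfer protein, differed by -0.35 (SE 0.12, adjusted p = 0.503) and -0.27 (SE 0.11, adjusted p = 0.574). Without both pairs they differed by -0.08 and -0.14, and Pltp by -0.15 without 0.5% replicate 6 alone.

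Clock genes follow the time of day, which is not given for each mouse. Of 18 core clock genes 9 were higher and 9 lower, 0 and 3 at an unadjusted p below 0.05, with a median of -0.005. Cry2, a repressor of the clock, was 5.95, 5.68, 6.32, 6.19, 6.25 and 6.00 in replicates 1 to 6 of 0.1%, and 5.34, 5.60, 5.62, 5.92, 5.24 and 5.20 in those of 0.5%. At 0.5%, 5 of 6 mice lay below all mice of 0.1%. The difference was -0.58 (SE 0.13, adjusted p = 0.223), and -0.41 without both pairs. Per3, another repressor, differed by -0.34 (SE 0.16, adjusted p = 0.597), with its other probe sets between -0.18 and 0.16. The rhythmic genes of large amplitude had wide intervals, with Dbp at -0.47 (95% interval -1.503 to 0.56), Arntl at 0.34 (-0.29 to 0.96), Per2 at -0.15 (-0.60 to 0.30) and Nr1d1 at 0.02 (-0.37 to 0.42). Dbp was lowest in 0.5% replicates 1 and 2, at 6.45 and 6.88, and Arntl lowest in 0.1% replicates 5 and 6, at 4.10 and 4.16. Of 17 clock output genes 5 were higher and 12 lower, 1 in each direction at that threshold, with a median of -0.10. The count was 9 higher and 8 lower without 0.5% replicates 5 and 6, and 12 and 5 without both pairs (median 0.12).

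Growth and stress lists were read last. Of 26 cell cycle genes 12 were higher and 14 lower, 0 and 2 at an unadjusted p below 0.05. Ccnb2 and Ccnd1, cyclins of mitosis and of G1, differed by -0.42 (SE 0.15, adjusted p = 0.506) and -0.63 (SE 0.28, adjusted p = 0.583), the second by 0.25 without both pairs. Of 23 genes of the unfolded protein response 12 were higher and 11 lower, with Ern1, a sensor of the endoplasmic reticulum, at 0.23 (SE 0.11, adjusted p = 0.62). Heat shock genes were 6 higher and 14 lower, with Hspa4 at -0.21 (SE 0.09, adjusted p = 0.583) and its other probe sets between -0.08 and 0.15. Respiratory chain genes were 16 higher and 17 lower with a median of -0.01, and Ndufb3, a complex I subunit, differed by 0.20 (SE 0.09, adjusted p = 0.582). Of 16 genes of NF-kappaB and inflammation 6 were higher and 10 lower, with Icam1, an adhesion molecule, at -0.30 (SE 0.13, adjusted p = 0.582). Glucocorticoid-responsive genes were 7 higher and 10 lower, 1 and 3 at that threshold, with a median of -0.05. Without 0.5% replicates 5 and 6, without those of 0.1%, and without both pairs, 11 were higher and 6 lower, with medians of 0.07, 0.18 and 0.18. The medians of several near-even lists changed sign with the scaling of the arrays. Under trimmed-mean scaling the medians of the core clock, respiratory chain, lipoprotein and hepatocyte lists were 0.01, 0.02, 0.05 and 0.04. As deposited, those of the insulin, pyruvate dehydrogenase, bile acid and unfolded protein response lists were -0.04, -0.04, -0.06 and -0.03. The median over all genes moved too, to -0.04 as deposited and 0.007 under trimmed-mean scaling. The list medians as deposited thus lay near that of all genes.

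**Figure D4:**
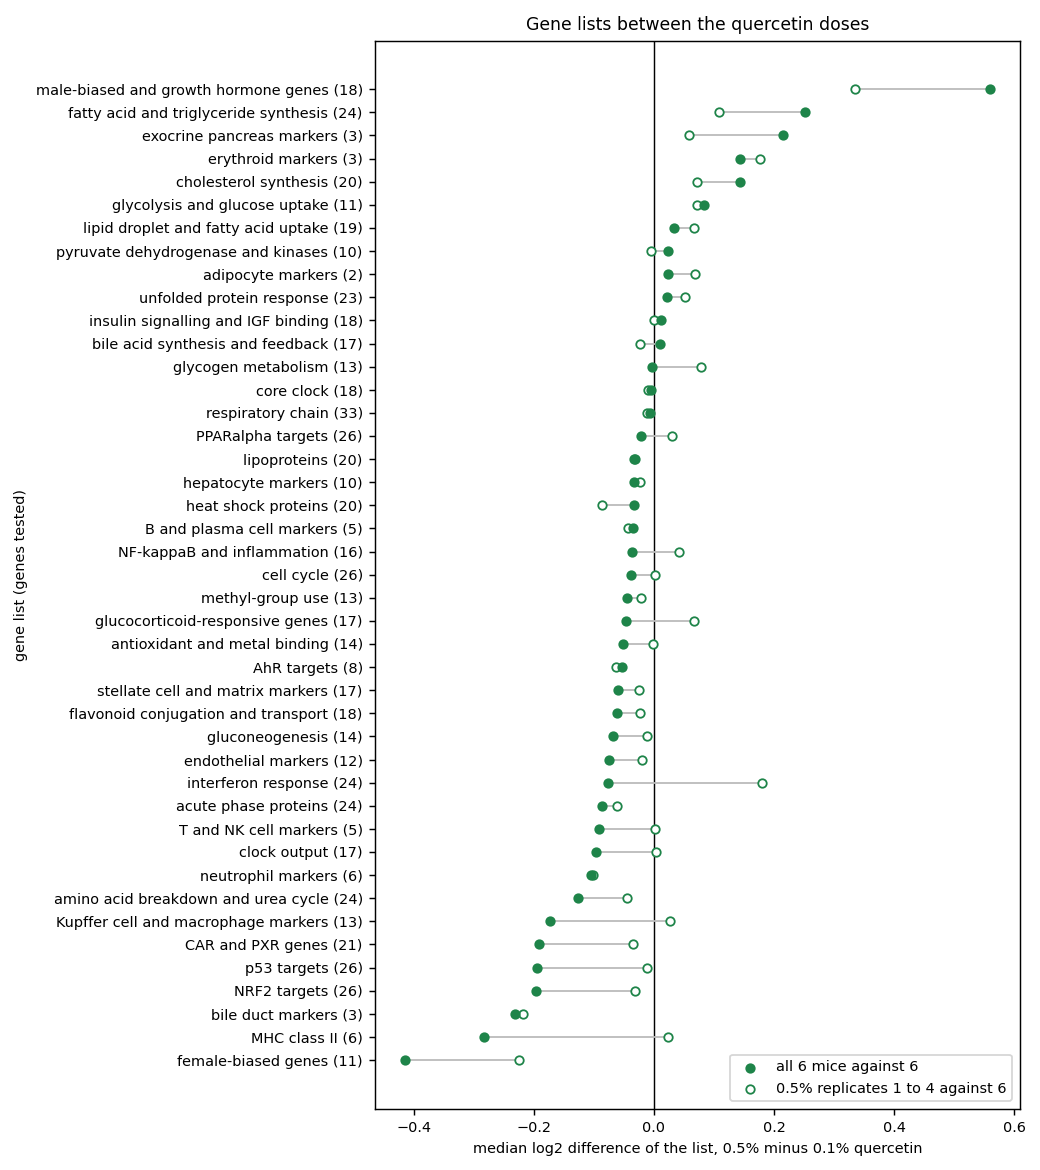
Median difference, 0.5% minus 0.1% quercetin in log2 units, of each of 43 gene lists (number of genes tested in brackets), with all 6 mice of each dose (filled) and without 0.5% replicates 5 and 6 (open). The male-biased and growth hormone list had a median of 0.56 with all mice and 0.34 without them, and the p53 list -0.19 and -0.01. The median over all 13114 genes was -0.0027.

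The dose difference was also read against the difference between STZ and control mice, which are the other 12 animals. In 13114 genes limma called 232 higher (1.77%) and 185 lower (1.41%) in STZ than in control mice, at an adjusted p below 0.05. Of the 232 genes higher in STZ mice, 214 (92.2%) had a lower mean at 0.5% than at 0.1% quercetin, against 50.9% of all genes, with a median of -0.22. Of the 185 genes lower in STZ mice, 157 (84.9%) had a higher mean at 0.5%, with a median of 0.15. Among these genes 87 of the 232 were lower and 0 higher at an unadjusted p below 0.05, and 53 of the 185 were higher and 1 lower. The genes that differed between STZ and control thus stood closer to the control side at 0.5% than at 0.1%.

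That relation was weaker or absent when the mice that stood apart were left out. These 4 mice lay at opposite ends of the first principal component, by dose. Leaving them out lessens a dose difference along it, so what the relation depends on was not tested. Across the 13114 genes, which are not independent replicates, the dose difference and the STZ difference had a Pearson r of -0.471. The 2 differences share no mouse, but they share the normalization and the estimate of the spread. The correlation was -0.136 without 0.5% replicates 5 and 6, -0.346 without 0.1% replicates 5 and 6, and 0.0139 without both pairs. In the same order, 148, 207 and 125 of the 232 genes were lower at 0.5%, and 125, 149 and 92 of the 185 genes were higher. Without both pairs the medians of the 2 sets were -0.02 and -0.0002.

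**Figure D5:**
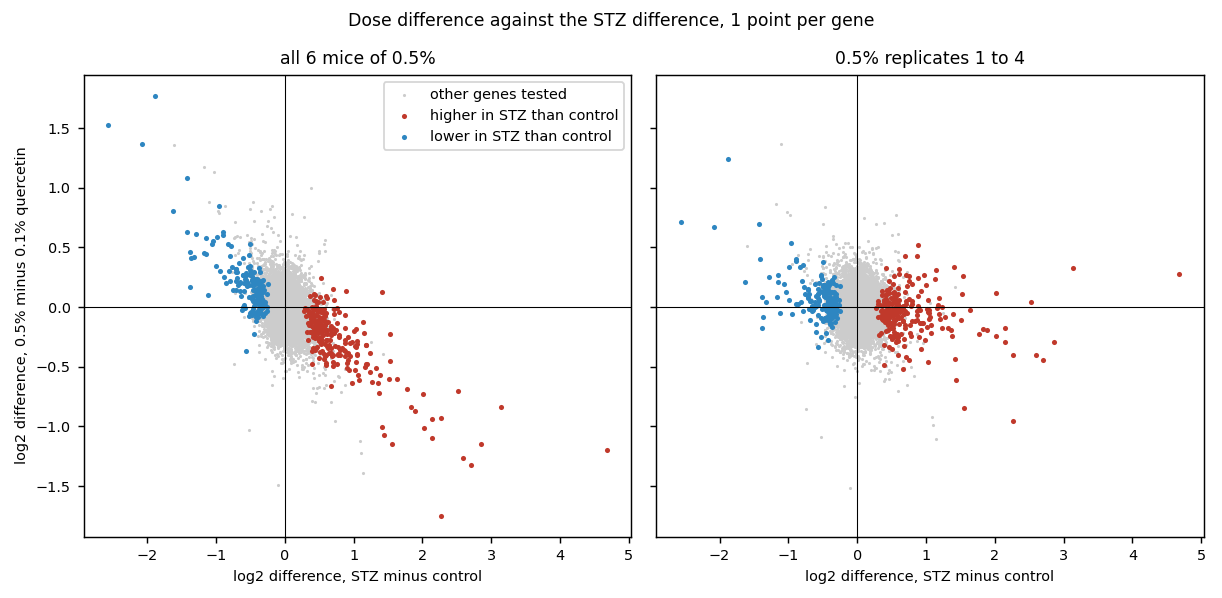
Difference between the quercetin doses (0.5% minus 0.1%, y axis) against the difference between STZ and control mice (x axis), both in log2 units, with 1 point per gene and genes called between STZ and control in colour. With all 6 mice of 0.5% (left) 214 of the 232 genes higher in STZ lay below 0, and without 0.5% replicates 5 and 6 (right) 148 did.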

How the data were processed

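The authors deposited 1 linear probe set intensity per probe set and array. The summary algorithm and scaling are not given in the sources used here, so a level is relative to the other arrays only. All 24 arrays were quantile normalized, 16 was added and log2 taken of the deposited intensities. Probe sets with 1 symbol and a mean at or above the 40th percentile were tested, 23082 in all. One fit of 4 group means over 24 arrays was made with limma 3.58.1 in R 4.3.3, and the contrast 0.5% minus 0.1% was tested on both sides with Benjamini-Hochberg adjustment at 0.05. The code was tested on simulated data. The p-values set the dose difference against a spread between mice pooled over the 4 groups, and 6 arrays per dose limit the precision. Mice are taken as independent, although they shared cages. Where the doses differed in spread, as in Cdkn1a (SD 1.88 at 0.5% and 0.35 at 0.1%), the pooled SE describes neither dose alone. Of 34958 probe sets with 1 symbol in the platform annotation, 34754 matched RefSeq (GRCm38.p6) by gene ID, while 932 had several symbols and 9211 none. Promoter windows came from the same RefSeq table.

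Genes named are the 6 probe sets with the smallest p in each direction, the 2 members of each list with the smallest p, and fixed genes of drug, glucose, lipid and clock pathways (some are not reported here). Members and lists were chosen with earlier results of these data known. The fits without 0.1% replicates 5 and 6, and without replicates 5 and 6 of both doses, were chosen after seeing the data. The other alternatives changed the scaling, pseudocount, filter, arrays fitted, error model, covariates or single arrays.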

Additional observations from a re-analysis of the deposited data

Results flagged for a closer look

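Among 218 pairs of a dose group and a gene, 5 had a highest or lowest mouse set apart from the other 5 mice of its group, where chance sets apart about 1 in 20. All 5 were in the 0.1% group. The rule weighs the gap between the extreme mouse and the next one. It therefore cannot set apart mice that lie together, as 0.5% replicates 5 and 6 did in Cdkn1a, at 5.01 and 4.72. Abcb4, the phospholipid exporter of bile, was 10.4 in replicate 5, against 9.72 to 9.91 in the others. H2-DMa, which loads peptides on MHC class II, was 4.85 in replicate 2, against 5.20 to 5.37. Krt8 on probe set 1435989_x_at was 9.62 in replicate 3, against 9.44 to 9.50. Nr1d1, the clock repressor REV-ERB alpha, was 5.18 in replicate 6, against 6.33 to 6.71. Phka2, the phosphorylase kinase subunit, was 6.35 in replicate 5, against 6.56 to 6.67.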

How the results depend on the processing

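Of 29 alternatives, 26 gave 0 called probe sets in either direction, and the smallest adjusted p over all 29 ran from 0.00668 to 0.9998. Leaving out each array in turn gave 0 to 2 called lower and 0 called higher. The 17 probe sets higher without overlap became 11 under median scaling, 35 with no filter, 11 with 1 probe set per gene, 84 without 0.5% replicates 5 and 6, 93 without 0.1% replicates 5 and 6, 274 without both pairs, and 32 to 63 with 1 array left out. The 36 lower became 12 as deposited, 23 with 1 probe set per gene, 91, 98 and 280 without the same arrays, and 48 to 100 with 1 array left out. Fewer mice make separation easier, and fewer probe sets were tested at 1 per gene. Replicate numbers did not pair the mice: same-numbered deviations correlated at -0.0968 to 0.124, with 1 of 6 over 0.1 and 1 of 6 mice closest to its own number. With the replicate block 0 probe sets were called higher and 0 lower, and the smallest adjusted p was 0.175.

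Of 109 differences followed, 86 kept their direction under all 29 alternatives and 23 did not, and the cause was not tested beyond the arrays left out. Many were picked for a small p or a lack of overlap in these data, so the count of 86 does not measure stability over all genes. Without both pairs the reversed values were -0.0066 for Gpd2, -0.035 for Chchd7, -0.16 for Elovl3, 0.057 for Prom1, -0.084 for Ghr, -0.19 for Srebf1, -0.073 for Sc5d, -0.10 for Fdps, 0.18 for Pck1, 0.045 for Abcb4, -0.44 for Cyp7a1, 0.13 for Gsta2, 0.19 for Nqo1, 0.11 for Nfe2l2, 0.23 for Cyp2b10, 0.35 for Cdkn1a, 0.12 for Fmo5, -0.14 for Arntl, 0.14 for Per2, -0.17 for Nr1d1, 0.25 for Ccnd1 and -0.12 for Cela1. Without 0.1% replicates 5 and 6 they were -0.017 for Gpd2, -0.0015 for Igf1, -0.017 for Srebf1, 0.025 for Pck1, -0.022 for Cyp7a1, 0.018 for Nqo1, -0.15 for Arntl, 0.12 for Per2 and -0.23 for Nr1d1. Without 0.5% replicates 5 and 6 they were -0.03 for Chchd7, -0.092 for Srebf1, -0.27 for Cyp7a1, 0.051 for Nfe2l2, 0.032 for Cyp2b10 and 0.33 for Cdkn1a. As deposited, Chchd7 was -0.044, Igf1 -0.019 and Nr1d1 -0.023, and under median scaling Chchd7 was -0.059, Igf1 -0.045, Srebf1 -0.017 and Nr1d1 -0.048. Array weights gave -0.021 for Chchd7 and -0.10 for Cyp7a1, a pseudocount of 64 gave -0.0039 for Nr1d1, and the Gapdh covariate gave 0.00056 for Cyp2b10 and -0.016 for Nr1d1. With 1 array left out, Chchd7 ran from -0.025 to 0.078, Igf1 from -0.0048 to 0.080, Srebf1 from -0.065 to 0.196, Cyp7a1 from -0.197 to 0.628 and Nr1d1 from -0.195 to 0.112.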
